A study of Mus musculus with 32 samples.

Results

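The genes measured here encode the proteasome, the barrel-shaped protease that degrades ubiquitin-tagged proteins. Members were chosen by name: every gene whose platform symbol began with Psma, Psmb, Psmc, Psmd or Psme and a number, with the probe set of highest mean signal standing for the gene. Of 18193 genes named alone on the array, 44 matched, and 42 of these encode a subunit, an activator or an assembly chaperone of the particle. Psmc3ip and Psme3ip1 share the symbols' start but encode no subunit and were kept apart. Psma8 and Psmb11, the core subunits of testis and thymus, lay below the filter on low values (a mean log2 signal of 7.11), which left 40 members for the tests. Psme2, the partner of Psme1, was represented solely by probe sets that name several genes, so no value is given for it.

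The 20S core particle is a stack of rings in which alpha subunits (Psma) gate the pore and beta subunits (Psmb) carry the active sites. The 19S regulatory particle caps it, with ATPases (Psmc) that unfold substrates and non-ATPase subunits (Psmd) that bind and trim ubiquitin chains. In cells that meet interferon, and constitutively in many immune cells, the catalytic subunits Psmb5, Psmb6 and Psmb7 are replaced by Psmb8, Psmb9 and Psmb10, which form the immunoproteasome and change the peptides offered to MHC class I. In the heart the proteasome removes damaged and sarcomeric proteins, and its genes are studied in hypertrophy because protein turnover changes when the ventricle grows.

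RNA came from the left ventricle of 32 C57Bl6 mice, 1 Affymetrix mouse 430 2.0 array per mouse, in 8 groups of 4: females and males, either wild type or with a knockout label for the gene of oestrogen receptor beta (Esr2), after sham surgery or transverse aortic constriction (TAC), which narrows the aorta and loads the ventricle with pressure. All mice had a stated age of 10 weeks, without a word on whether this was at surgery. A TAC duration of 9 weeks was given for the knockout TAC mice and no duration for the wild-type TAC mice, so genotype and duration cannot be told apart if they differed. The labels do not describe the knockout allele, its background crosses or which part of Esr2 it removes, and the knockout is not said to be limited to a cell type. The replicates were individual mice, and p-values below measure the spread between them.

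Values are signal intensities made with MAS5, whose 2% trimmed mean was 500 on every array. Median signals ran from 101.5 to 127.7, and the correlation across genes between arrays of a group lay between 0.914 and 0.988 (genes are no replicates). The Esr2 probe set was dim everywhere, with a median of 13.0 (range 3.6 to 67.7) in the 16 wild-type mice and 107.8 (25.8 to 196.8) in the 16 labelled knockout. It therefore gave no check of the genotype labels, and "knockout" below means as labelled. All 9 ventricular myocyte markers were bright, Myh6 between 40378.6 and 95059.1. Atrial light chain Myl7 ran from 5.4 to 16868.3, so some hearts carried atrial transcripts and others hardly any. The array number limits the precision of every value.

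A set of 10 arrays stood apart from the other 22, cutting across groups but unevenly spread over them. Of the 40 members, 6 (15.0%) differed by 0.5 log2 units or more, near the 13.9% of all genes tested. The split was noticed in the values of Psmb7 and then defined from genes that are no members: of 70 genes with a gap of at least 0.5 log2 units and 5 or more arrays on each side, 9 split off exactly these arrays, the commonest split that crossed the groups (another 10 genes split sham from TAC). The 10 arrays were 1, 2 and 3 of the female knockout TAC mice, 1, 2 and 4 of the male knockout TAC mice, 1 and 2 of the female knockout sham mice, 4 of the male knockout sham mice and 1 of the wild-type male TAC mice. Thus 9 were knockout and 1 was wild type. More came from TAC groups (3, 3 and 1) than from sham groups (2 and 1). Leaving them out or fitting them as a term therefore also bears on the TAC comparisons. No label sets them apart, so they are called neither a batch nor a group. Their Gapdh 3-prime minus 5-prime difference was -0.32 to -0.18 log2 units against -0.37 to -0.20 in the other arrays, and their median signals 101.5 to 109.6 against 103.7 to 127.7. Results below are given for all 32 arrays, with the value after leaving these 10 out beside the calls it alters. In that alternative the female and male knockout TAC groups hold 1 array each, which is assumed to vary like the other groups. Counts of calls there can include Psmb7, in which the split was noticed, and for that gene they are no test.

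The promoters of 2 pairs of catalytic genes, each an immunoproteasome gene and the constitutive gene it replaces, are shown because the interferon response is what is known to separate them. They run from 250 bases before to 50 after the transcription start on the gene's own strand (RefSeq, GRCm38.p6). Capitals mark the gamma-activated site TTCNNNGAA, a motif of interferon-responsive promoters, in Psmb8 (positions -97 to -89, with the start as 0), and the antioxidant response element TGACNNNGC, to which Nrf1 and Nrf2 bind, in Psmb5 (-47 to -39) and Psmb6 (-9 to -1).
Psmb8, chr17:34197945-34198244, plus strand: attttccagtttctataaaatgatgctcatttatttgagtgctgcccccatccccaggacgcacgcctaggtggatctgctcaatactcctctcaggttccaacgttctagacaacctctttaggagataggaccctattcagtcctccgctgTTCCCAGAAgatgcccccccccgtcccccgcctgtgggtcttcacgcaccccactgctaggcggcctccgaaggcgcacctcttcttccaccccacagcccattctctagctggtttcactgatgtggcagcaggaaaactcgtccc
Psmb5, chr14:54617946-54618245, minus strand: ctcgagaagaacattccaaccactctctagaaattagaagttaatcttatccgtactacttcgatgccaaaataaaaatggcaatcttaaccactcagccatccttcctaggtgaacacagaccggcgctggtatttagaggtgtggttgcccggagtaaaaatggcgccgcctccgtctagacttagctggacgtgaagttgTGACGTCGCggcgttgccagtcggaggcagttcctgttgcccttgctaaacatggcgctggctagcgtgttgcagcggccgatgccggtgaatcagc
Psmb9, chr17:34187281-34187580, minus strand: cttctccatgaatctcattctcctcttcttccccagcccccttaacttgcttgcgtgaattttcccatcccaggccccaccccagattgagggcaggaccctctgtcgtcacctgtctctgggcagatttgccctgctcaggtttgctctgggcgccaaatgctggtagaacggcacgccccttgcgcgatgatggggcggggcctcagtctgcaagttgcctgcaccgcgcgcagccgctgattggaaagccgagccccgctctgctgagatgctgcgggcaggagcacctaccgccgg
Psmb6, chr11:70525107-70525406, plus strand: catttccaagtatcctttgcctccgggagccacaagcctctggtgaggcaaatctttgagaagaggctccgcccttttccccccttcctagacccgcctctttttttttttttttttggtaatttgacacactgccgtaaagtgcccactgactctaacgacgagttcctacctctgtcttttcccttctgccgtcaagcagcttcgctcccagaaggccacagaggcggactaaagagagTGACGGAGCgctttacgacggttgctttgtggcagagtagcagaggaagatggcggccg
Promoters were listed for 35 of the 42 members, Psmb7 not among them, and both strands were searched. The antioxidant response element occurred in 6 of the 35 (17.1%) against 12.5% of 27025 promoters, and the members were Psmb5, Psmb6, Psmc6, Psmd12, Psmd9 and Psme4. The interferon-stimulated response element (GAAA, any 2 bases, GAAA) occurred in 4 (11.4% against 3.49%): Psmb3, Psmd4, Psmd9 and Psme1. The gamma-activated site occurred in Psmb8 and Psmd2 (5.71% against 8.47%) and the CCAAT box in 14 (40.0% against 37.9%). These are matches of letters in a short window, not binding sites.

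Pressure overload moved a minority of proteasome genes, and by modest amounts. Averaged over the 4 combinations of sex and genotype (16 TAC against 16 sham mice), 9 of the 40 members rose and 3 fell. The genes that rose lay mostly in the regulatory particle and the immunoproteasome, led by Psmd3, Psmd8 and Psmb10. Those that fell were the activators Psme1 and Psme4 and the core subunit Psmb2. The share called, 30%, was below that over all 11014 genes tested, of which 41.2% were called (23.5% higher and 17.8% lower; limma, Benjamini-Hochberg adjusted p under 0.05). The median log2 change of the 40 members was 0.01 and that of all genes 0.02. By class the median was -0.02 in the core (14 genes; 1 higher, 1 lower), 0.06 in the regulatory particle (17 genes; 6 higher) and 0.27 in the immunoproteasome (3 genes; 2 higher). With the 10 arrays left out, 9 members were higher and 4 lower, against 37.6% of all genes called. The array's RNA quality controls moved with TAC: the Gapdh 3-prime minus 5-prime difference was -0.37 to -0.23 log2 units in sham mice (median -0.31) and -0.32 to -0.18 in TAC mice (median -0.24), and that of Actb was 0.45 to 1.1 (median 0.62) and 0.05 to 0.48 (median 0.27). Adding the Gapdh difference as a covariate left 3 members higher and 2 lower, and 18.5% of all genes. Adding that of Actb, which hardly overlapped between the surgeries, left 2 members, Psmd8 and Psmc4, both higher, and 7.88% of all genes. In that fit TAC and the Actb difference can hardly be told apart, and the part of RNA quality in the calls below was not tested further.

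**Figure D1:**
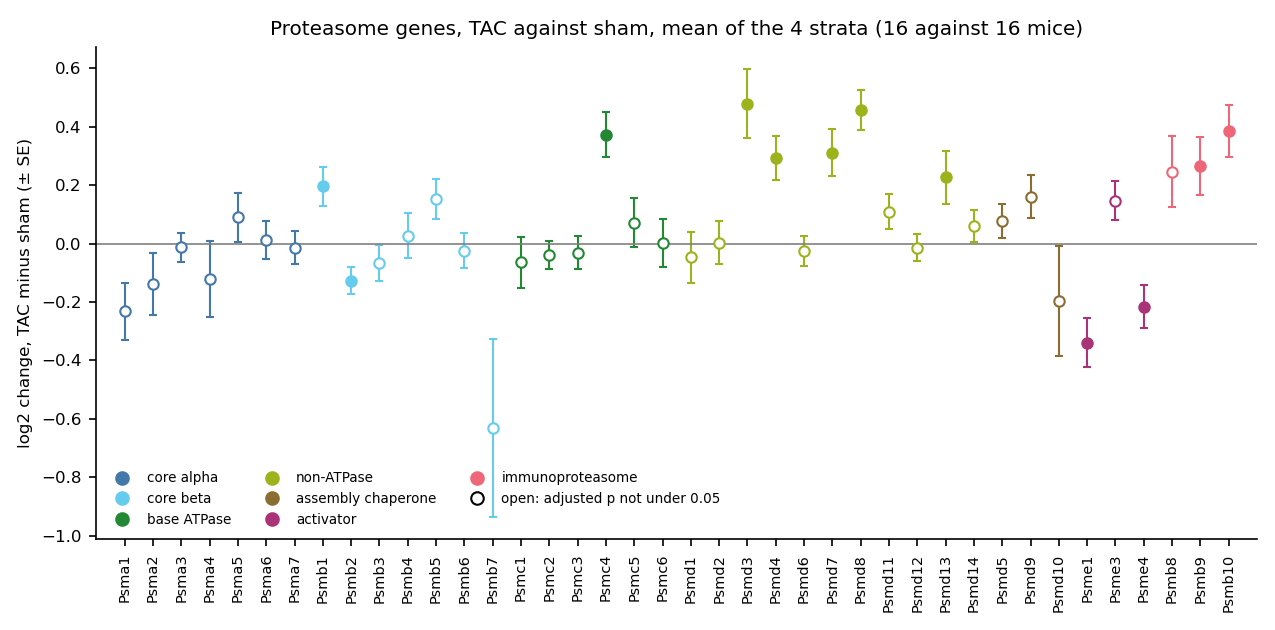
Log2 change (TAC minus sham, vertical axis) of the 40 proteasome genes over the mean of the 4 strata, grouped by role along the horizontal axis; points are limma estimates, bars are SE, and filled points passed an adjusted p of 0.05. The 6 called regulatory genes sit between 0.23 and 0.48, the 7 alpha subunits lie between -0.23 and 0.09, and Psmb7 has by far the widest bar (SE 0.31).

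In the regulatory particle 6 of 17 genes rose and the other 11 did not pass. Psmd8 (Rpn12), a subunit of the lid, gave the smallest p of the 40 members. Psmd8 read 3024.8, 3429.0, 3539.9 and 3107.5 in wild-type female sham mice and 4455.6, 3767.8, 4891.1 and 3786.6 in the matching TAC mice. Psmd8 read 3468.4, 3433.8, 3395.8 and 2722.5 in wild-type male sham mice and 4844.4, 4532.9, 4647.4 and 3744.0 in the matching TAC mice. The TAC mice were above the sham mice in both wild-type sexes without overlap. Psmd8 signals were 3674.3, 3869.9, 2817.5 and 2728.7 in female knockout sham mice and 4937.9, 5587.4, 4159.7 and 3758.7 in the matching TAC mice. Psmd8 signals were 3586.1, 3575.7, 3219.9 and 3669.6 in male knockout sham mice and 5768.7, 4039.2, 5450.5 and 5400.9 in the matching TAC mice. Knockout males were again separated, and in knockout females a single TAC mouse, replicate 4, fell inside the sham range. The mean change was 0.46 ± 0.07 (SE; log2 scale; 1.37-fold; adjusted p = 4.09e-06, limma), and it was 0.46 ± 0.07 without the 10 arrays. It passed in all 14 other settings tried (0.47, adjusted p = 0.0366, limma, with the Actb covariate) and with each array left out. Psmd8 has 1 probe set on the array.

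Psmc4 (Rpt3), an ATPase of the base, rose by 0.37 ± 0.08 (1.30-fold; adjusted p = 0.000277, limma). Psmc4 read 4556.7, 4792.6, 4281.5 and 4374.4 in wild-type female sham mice and 4491.0, 5216.1, 7983.5 and 5678.1 in the matching TAC mice. Psmc4 read 4682.1, 4346.0, 3875.2 and 5619.2 in wild-type male sham mice and 6286.9, 6040.2, 6527.2 and 5493.5 in the matching TAC mice. A wild-type female TAC mouse and a wild-type male TAC mouse lay inside their sham ranges. Psmc4 signals were 7596.2, 7233.7, 4790.9 and 4685.7 in female knockout sham mice and 7410.6, 7871.3, 8460.5 and 7219.0 in the matching TAC mice. Psmc4 signals were 6552.2, 6970.2, 5147.8 and 6506.7 in male knockout sham mice and 7548.0, 7425.3, 8911.4 and 8515.0 in the matching TAC mice. The knockout males were separated, while in knockout females 2 sham mice, both among the arrays that stood apart, reached the TAC range. A further probe set of Psmc4 gave 0.41. The change was nearly the same in the 4 strata (0.34, 0.40, 0.38 and 0.37), though in none of them alone did it pass, and without the 10 arrays it was 0.46 ± 0.10. With the Actb covariate it was 0.65 (adjusted p = 0.00592, limma). Psmc5 (Rpt6), named as the ATPase with the next smallest p, did not pass (0.07 ± 0.08; adjusted p = 0.513, limma). Psmc5 in sham mice read 3935.1, 4026.8, 3826.5 and 3312.6 in wild-type females, 3736.4, 3809.9, 3673.6 and 4089.7 in wild-type males, 4455.4, 3962.9, 3349.1 and 3789.5 in knockout females and 3333.5, 2046.7, 4002.3 and 4708.9 in knockout males. Psmc5 in TAC mice read 2527.0, 3840.4, 4086.2 and 3981.4 in wild-type females, 4553.4, 3533.8, 4018.6 and 3464.0 in wild-type males, 3985.5, 4715.6, 4300.1 and 3948.0 in knockout females and 3990.2, 4565.6, 3747.0 and 3620.8 in knockout males. Its sham and TAC values overlapped in all 4 strata. The other 4 ATPase genes, Psmc1, Psmc2, Psmc3 and Psmc6, lay between -0.06 and 0.002.

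Psmd3 (Rpn3), another lid subunit, had the largest mean rise among the members, 0.48 ± 0.12 (1.39-fold; adjusted p = 0.00171, limma). Psmd3 read 1994.9, 1862.5, 2310.5 and 1649.4 in wild-type female sham mice and 2322.5, 2067.7, 2572.2 and 2521.6 in the matching TAC mice. Psmd3 read 1956.6, 2028.9, 2184.9 and 2343.1 in wild-type male sham mice and 3089.2, 2066.9, 2768.6 and 2082.6 in the matching TAC mice. The wild-type groups overlapped in both sexes. Psmd3 signals were 2654.0, 3158.0, 1709.2 and 1797.2 in female knockout sham mice and 2831.4, 3988.4, 3090.3 and 2318.8 in the matching TAC mice. Psmd3 signals were 1299.0, 858.9, 1762.1 and 3026.4 in male knockout sham mice and 3587.8, 3331.2, 2974.5 and 2959.5 in the matching TAC mice. In knockout males 3 sham mice lay far below the TAC mice, and replicate 4, an array that stood apart, lay within the TAC range. Psmd4 (Rpn10), which binds ubiquitin chains, rose by 0.29 ± 0.08, Psmd7 (Rpn8), the scaffold of the lid's deubiquitinase, by 0.31 ± 0.08 and Psmd13 (Rpn9) by 0.23 ± 0.09. Psmd14, the deubiquitinase itself (Rpn11), was at 0.06 ± 0.05 and did not pass, nor did Psmd1, Psmd2, Psmd6, Psmd11 and Psmd12 (-0.05 to 0.11). Further probe sets of Psmd11 passed, at 0.22 (adjusted p = 0.00759, limma) and 0.27 (adjusted p = 0.00536). Psmd3, Psmd4 and Psmd7 did not pass with the Gapdh covariate, and with the Actb covariate they were at 0.20, 0.04 and 0.01 and did not pass. The call of Psmd7 rested on its brightest probe set. A second was at 0.08 (adjusted p = 0.617, limma), and the mean over all 3, of which the third is below the filter on low values, gave -0.03 (adjusted p = 0.781, limma). Psmd13 did not pass in 7 of 14 other settings. It lost its call when any of 18 arrays was left out 1 at a time (adjusted p up to 0.081 over the 32 such fits). Another probe set of the gene gave 0.26 (adjusted p = 0.0298, limma), and a dimmer one gave -0.29 (adjusted p = 0.00549).

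**Figure D2:**
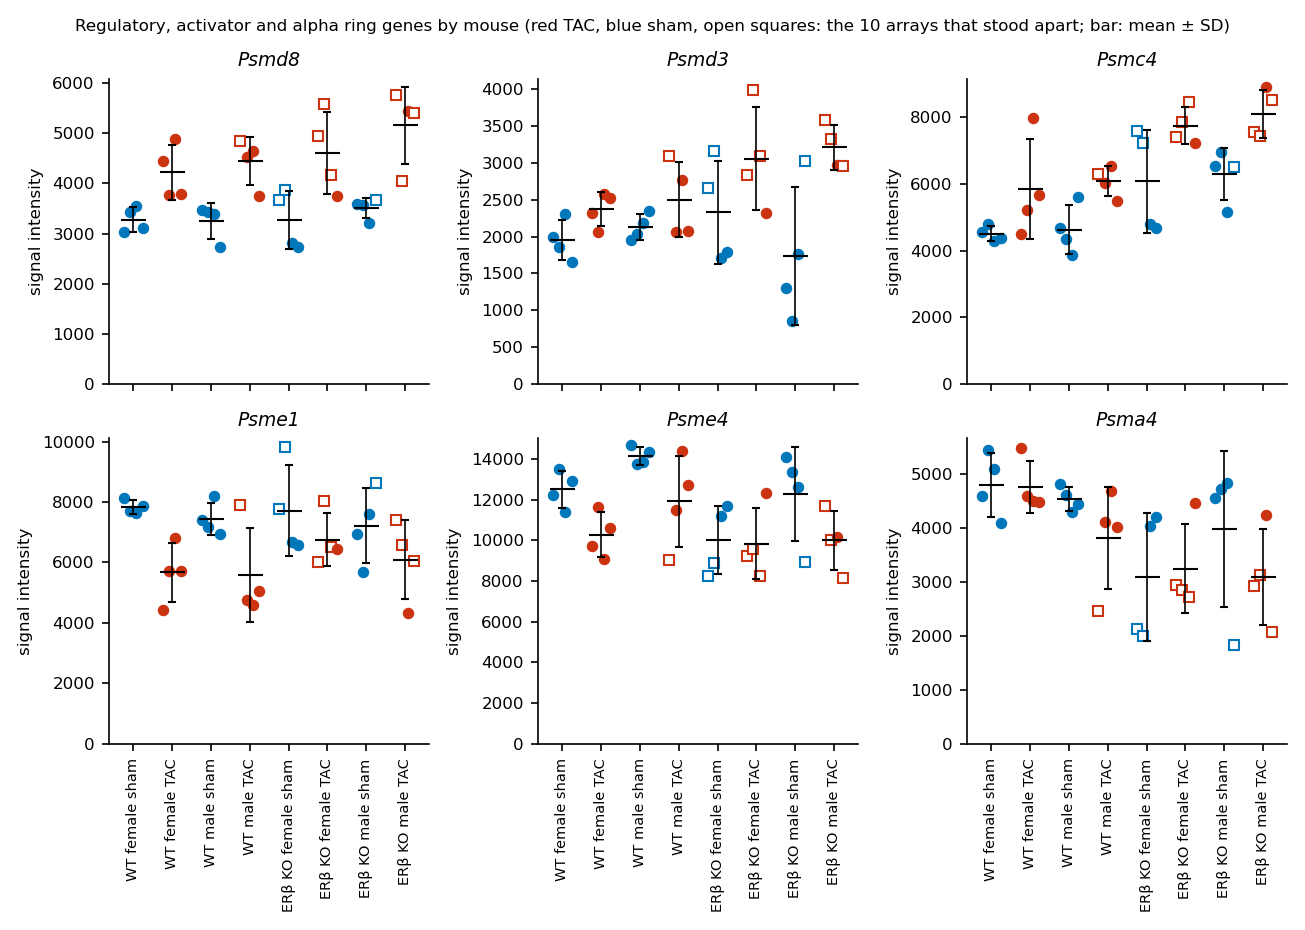
Signal intensity (vertical axis, from 0) of 6 genes in every mouse by group (horizontal axis); red points are TAC and blue points sham mice, open squares the 10 arrays that stood apart, black bars the mean ± SD of 4 mice. The Psmd8 mean is higher in the TAC group of each pair, the Psme1 mean is lower in it, and the Psma4 values of the open squares (1823.3 to 3120.1) lie below all others.

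Few genes of the constitutive core passed. Psmb7, described below, had the largest mean change in size of the 40 members, -0.63, and did not pass. Of its 14 genes Psmb1 rose and Psmb2 fell, and none of the 7 alpha genes passed. Psmb1 in sham mice read 4330.7, 4590.2, 4447.3 and 4332.8 in wild-type females, 4446.2, 4463.5, 4826.6 and 5428.9 in wild-type males, 6848.1, 6764.0, 5040.9 and 4786.5 in knockout females and 5721.7, 4590.7, 5581.7 and 6662.6 in knockout males. Psmb1 in TAC mice read 5026.3, 5290.2, 6401.3 and 4944.2 in wild-type females, 6316.0, 4829.0, 6165.0 and 4577.0 in wild-type males, 5665.8, 7267.8, 6507.5 and 5339.8 in knockout females and 6244.6, 7001.3, 6445.1 and 6630.1 in knockout males. Psmb1 was higher in TAC than in sham mice without overlap in wild-type females, and the groups overlapped in the other strata (0.20 ± 0.07; adjusted p = 0.0189, limma). It did not pass when the 10 arrays were a term in the fit (0.12 ± 0.06; adjusted p = 0.0792, limma), with the mean of its probe sets or with either covariate. Psmb2 in sham mice read 3618.4, 3955.7, 3985.6 and 3895.2 in wild-type females, 4123.2, 4155.6, 4271.6 and 3804.3 in wild-type males, 3763.8, 3173.1, 3278.8 and 3426.6 in knockout females and 3604.4, 3821.8, 3617.4 and 4609.6 in knockout males. Psmb2 in TAC mice read 2961.5, 3533.0, 3323.8 and 3351.2 in wild-type females, 3896.8, 3145.3, 3642.7 and 3434.2 in wild-type males, 3562.0, 3276.9, 3484.5 and 3601.1 in knockout females and 3611.6, 3887.7, 3706.8 and 3409.8 in knockout males. Psmb2 was lower without overlap in wild-type females alone (-0.13 ± 0.05; adjusted p = 0.031, limma), and it did not pass without the 10 arrays (-0.09 ± 0.05; adjusted p = 0.156, limma), with array-median centring, with the Actb covariate (-0.07; adjusted p = 0.741) or without any of 4 single arrays (adjusted p up to 0.0579): wild-type female TAC 1, wild-type male TAC 2, female knockout sham 1 and male knockout TAC 4. Psma1 had the largest mean change among the alpha genes, -0.23 ± 0.10 (adjusted p = 0.0583, limma), and without the 10 arrays it fell by 0.24 on the log2 scale (SE 0.05; adjusted p = 0.00106, limma). With them as a term it was at -0.09 ± 0.07 (adjusted p = 0.305, limma). The other 6 alpha genes lay between -0.14 and 0.09, and Psmb3 and Psmb4 at -0.07 ± 0.06 and 0.03 ± 0.08.

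Psmb7, the constitutive trypsin-like subunit, showed the largest split between arrays. Psmb7 read 14504.6, 13981.0, 12388.2 and 14756.9 in wild-type female sham mice and 10643.0, 12466.2, 9396.6 and 11151.7 in the matching TAC mice. Psmb7 read 13982.8, 13899.9, 16677.4 and 16136.7 in wild-type male sham mice and 2827.9, 10010.9, 11195.5 and 10874.3 in the matching TAC mice. Wild-type male TAC mice lay below all male sham mice, mouse 1 far below the rest, and in wild-type females 1 TAC mouse reached the sham range. Psmb7 signals were 2804.4, 2201.0, 15520.5 and 14010.3 in female knockout sham mice and 3946.1, 3040.8, 3047.8 and 15739.4 in the matching TAC mice. Psmb7 signals were 15210.8, 13079.8, 14267.6 and 1846.5 in male knockout sham mice and 2717.5, 8312.1, 7782.7 and 2538.8 in the matching TAC mice. Each knockout group mixed dim and brighter mice, and 9 of the 10 arrays that stood apart read 3946.1 or less. Over all arrays the TAC change was -0.63 ± 0.31 and did not pass (adjusted p = 0.0966, limma). Without the 10 arrays the log2 change of Psmb7 was -0.40, with -0.35 in wild-type females and -0.50 in wild-type males. The split was first noticed in this gene's values, and leaving the arrays out takes away its dimmest values. A p-value from that fit would be no test of Psmb7, so none is given. With the 10 arrays kept and entered as a term, the mean change was -0.09 ± 0.14 (adjusted p = 0.623, limma). Of the 32 fits that each left out a single array, the change passed in 3. Without female knockout sham mouse 2 it was -0.75 (adjusted p = 0.0402, limma), without female knockout TAC mouse 4 -0.77 (adjusted p = 0.0314) and without male knockout sham mouse 4 -0.81 (adjusted p = 0.0137). In the rest it did not pass (adjusted p up to 0.172, limma). The array holds 1 probe set for the gene.

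Across the members, the 10 arrays differed from the other 22 in both directions. The description carries no test, since the arrays were chosen from the data. The log2 difference, these arrays minus the others, was -2.15 for Psmb7 (4.44-fold lower), rank 1 from the bottom among 11014 genes. It was -1.20 for the assembly chaperone Psmd10 (gankyrin) and -0.89 for the alpha subunit Psma4, whose signals were 1823.3 to 3120.1 against 4007.5 to 5473.6. For Psma4 the arrays did not overlap, whatever the sex or surgery. Psma2 was at -0.64 and Psma1 at -0.56. On the other side Psmd3 was 0.61 higher, Psme1 0.43 and Psmd7 0.41. A difference of 0.5 or more was seen in 6 of the 40 members (15.0%) and in 13.9% of all genes tested. The source of the difference was not tested.

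**Figure D3:**
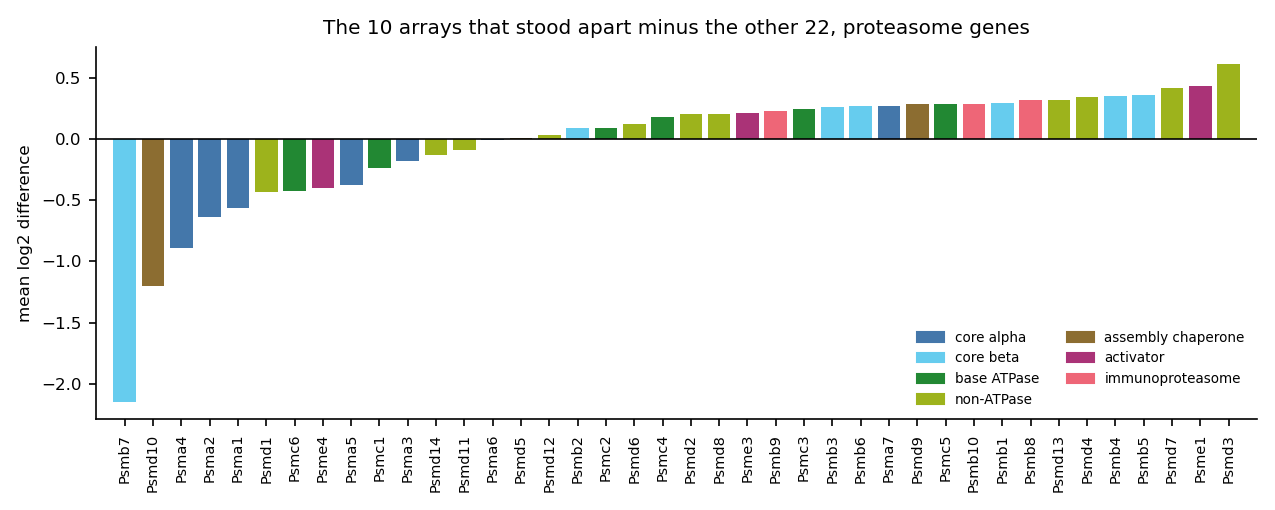
Mean log2 difference (vertical axis) between the 10 arrays that stood apart and the other 22, for the 40 proteasome genes in rising order (horizontal axis), coloured by role; bars have no error because the arrays were chosen from the data. Psmb7 at -2.15 and Psmd10 at -1.20 lie far below the rest, and Psmd3 at 0.61 is highest.

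Of the 3 activator genes measured, those of the 11S alpha subunit and of PA200 fell. Psme1 encodes PA28 alpha, an interferon-induced cap of the core. Psme1 read 8129.3, 7689.3, 7637.4 and 7882.0 in wild-type female sham mice and 4442.1, 5701.3, 6816.5 and 5729.9 in the matching TAC mice. Psme1 read 7419.0, 7178.7, 8191.3 and 6954.9 in wild-type male sham mice and 7891.1, 4770.9, 4600.2 and 5038.3 in the matching TAC mice. Wild-type female TAC mice lay below all sham mice, as did 3 of the 4 wild-type male TAC mice, and the exception, replicate 1, is among the arrays that stood apart. Psme1 signals were 7757.6, 9819.4, 6671.8 and 6581.6 in female knockout sham mice and 6021.7, 8035.4, 6521.4 and 6449.5 in the matching TAC mice. Psme1 signals were 6929.5, 5697.2, 7601.1 and 8645.2 in male knockout sham mice and 7420.8, 6566.8, 4340.8 and 6061.9 in the matching TAC mice. The knockout groups overlapped in both sexes. Psme1 fell by 0.34 on the log2 scale (SE 0.08; 1.27-fold; adjusted p = 0.00175, limma), and by 0.44 (SE 0.07) without the 10 arrays. With the Actb covariate it was at -0.50 and did not pass (adjusted p = 0.0651, limma). Its sign was opposite to that of Psmb9 and Psmb10, which interferon is also known to induce.

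Psme4 encodes PA200, a nuclear cap. Psme4 in sham mice read 12238.4, 13486.5, 11370.7 and 12889.2 in wild-type females, 14677.3, 13747.9, 13858.1 and 14315.0 in wild-type males, 8250.7, 8903.5, 11205.9 and 11688.7 in knockout females and 14109.9, 13367.1, 12621.7 and 8928.8 in knockout males. Psme4 in TAC mice read 9721.1, 11628.5, 9099.9 and 10621.6 in wild-type females, 9051.3, 11484.9, 14392.0 and 12713.2 in wild-type males, 9200.2, 9575.8, 8240.1 and 12301.0 in knockout females and 11666.2, 10026.8, 10156.9 and 8141.1 in knockout males. TAC mice were mostly lower except among knockout females, and the groups overlapped in every stratum. Psme4 fell by 0.22 on the log2 scale (SE 0.07; adjusted p = 0.0204, limma), and it did not pass with the 10 arrays as a term (-0.12 ± 0.06; adjusted p = 0.0938, limma), with quantile normalization or with either covariate. Psme3 encodes PA28 gamma, the nuclear 11S cap. Psme3 in sham mice read 1228.9, 1159.6, 930.8 and 1105.6 in wild-type females, 1354.5, 1212.3, 1196.5 and 1259.7 in wild-type males, 1236.8, 1396.7, 1093.2 and 1188.3 in knockout females and 1148.1, 1031.6, 1250.4 and 1365.0 in knockout males. Psme3 in TAC mice read 1220.3, 1190.3, 949.5 and 1409.2 in wild-type females, 1579.6, 1286.3, 1204.5 and 1420.3 in wild-type males, 1260.0, 1696.5, 1489.5 and 1083.3 in knockout females and 1512.5, 1264.7, 1477.3 and 1333.0 in knockout males. Its groups overlapped in all strata, and its change of 0.15 ± 0.07 did not pass (adjusted p = 0.0752, limma). It passed without any of 4 single arrays (0.16 to 0.17; adjusted p from 0.0288 to 0.0493, limma): wild-type female TAC 3, female knockout sham 2 and TAC 4, and male knockout sham 4. With the Actb covariate its sign turned (-0.11; adjusted p = 0.67, limma). Of the 3 assembly chaperones of the base, Psmd5 (0.08 ± 0.06), Psmd9 (0.16 ± 0.07) and Psmd10 (-0.20 ± 0.19), none passed.

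Of the 3 immunoproteasome genes Psmb10 and Psmb9 rose after TAC, and Psmb8 did not pass. Psmb10 encodes the trypsin-like immunosubunit beta2i. Psmb10 read 1428.7, 1574.6, 1481.6 and 1191.7 in wild-type female sham mice and 2380.2, 1951.5, 2438.6 and 1734.3 in the matching TAC mice. Psmb10 read 1686.9, 1747.6, 1457.7 and 1861.7 in wild-type male sham mice and 1697.3, 1502.4, 1508.9 and 1909.0 in the matching TAC mice. Wild-type females were separated without overlap, and wild-type males were not. Psmb10 signals were 1788.6, 1781.0, 993.7 and 1674.6 in female knockout sham mice and 2088.5, 2453.7, 2278.0 and 1498.3 in the matching TAC mice. Psmb10 signals were 1410.1, 1060.9, 1715.0 and 1898.0 in male knockout sham mice and 2287.2, 1916.2, 2462.9 and 2333.7 in the matching TAC mice. Among knockout females 3 TAC mice lay above all sham mice, and knockout males were separated by a narrow margin. The change was 0.39 ± 0.09 (1.31-fold; adjusted p = 0.000971, limma) and 0.39 ± 0.11 without the 10 arrays. It passed in 13 of 14 other settings tried, and with the Actb covariate it was 0.03 (adjusted p = 0.942, limma).

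Psmb9 (beta1i, caspase-like position) and Psmb8 (beta5i, chymotrypsin-like) lie close together in the MHC region, at chr17:34182030-34187330 and chr17:34198195-34201454 (GRCm38.p6), beside the peptide transporter genes Tap1 and Tap2. Psmb9 read 451.3, 561.4, 403.1 and 558.9 in wild-type female sham mice and 629.8, 494.5, 1200.2 and 510.8 in the matching TAC mice. Psmb9 read 427.6, 605.6, 570.5 and 466.3 in wild-type male sham mice and 563.2, 566.5, 597.9 and 498.8 in the matching TAC mice. Wild-type female TAC mouse 3 stood far above the other wild-type mice. Psmb9 signals were 599.6, 772.5, 471.5 and 444.2 in female knockout sham mice and 550.2, 734.9, 542.6 and 457.1 in the matching TAC mice. Psmb9 signals were 386.9, 371.0, 448.4 and 515.4 in male knockout sham mice and 672.7, 591.1, 718.5 and 554.6 in the matching TAC mice. The knockout males were separated and the knockout females were mixed. Psmb9 rose by 0.27 ± 0.10 (1.20-fold; adjusted p = 0.0333, limma), and it did not pass without the 10 arrays (0.33 ± 0.14; adjusted p = 0.0671, limma), with them as a term (0.21; adjusted p = 0.0996), with the Gapdh covariate (0.16; adjusted p = 0.469), with that of Actb (0.28; adjusted p = 0.464) or with no filter on low values (0.27; adjusted p = 0.0506). It also lost its call without any of 10 single arrays (adjusted p up to 0.0619): wild-type female sham 3 and TAC 3, wild-type male sham 1 and 4, female knockout sham 3, sham 4 and TAC 2, and male knockout sham 1, sham 2 and TAC 3. The lowest of these values, 0.20 (adjusted p = 0.0571, limma), was that without wild-type female TAC mouse 3. Psmb8 read 526.4, 817.3, 609.1 and 687.6 in wild-type female sham mice and 985.3, 638.9, 1692.2 and 713.5 in the matching TAC mice. Psmb8 read 621.0, 722.0, 692.4 and 963.2 in wild-type male sham mice and 694.2, 933.8, 813.8 and 675.8 in the matching TAC mice. The same wild-type female TAC mouse 3 was the highest of all 32. Psmb8 signals were 936.8, 1219.6, 722.5 and 795.5 in female knockout sham mice and 915.7, 1289.3, 944.9 and 551.9 in the matching TAC mice. Psmb8 signals were 631.7, 476.7, 776.8 and 869.7 in male knockout sham mice and 1050.3, 934.7, 985.0 and 770.2 in the matching TAC mice. Sham and TAC mice overlapped in every stratum, and the change of 0.25 ± 0.12 did not pass (adjusted p = 0.0976, limma). Without that mouse it was 0.18 (adjusted p = 0.191, limma), and it passed without wild-type female TAC mouse 2 (0.29; adjusted p = 0.0478) or female knockout TAC mouse 4 (0.30; adjusted p = 0.0321).

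Of the constitutive counterparts, Psmb7 was described above, and Psmb5 and Psmb6 did not pass over all arrays. Psmb5 in sham mice read 5347.0, 5374.6, 5281.9 and 4818.9 in wild-type females, 5444.8, 5241.4, 5301.7 and 5615.1 in wild-type males, 6318.6, 7565.9, 5187.9 and 5334.3 in knockout females and 4823.9, 4331.9, 5813.6 and 7233.3 in knockout males. Psmb5 in TAC mice read 5042.4, 5044.6, 6315.2 and 5325.8 in wild-type females, 6438.8, 4893.9, 5451.9 and 4667.5 in wild-type males, 6712.6, 7888.8, 7894.2 and 5769.3 in knockout females and 7511.2, 6761.4, 6694.5 and 7105.7 in knockout males. Psmb5, the chymotrypsin-like subunit, overlapped in all strata and was at 0.15 ± 0.07 (adjusted p = 0.0709, limma). It passed with quantile normalization (0.17; adjusted p = 0.0305, limma) and without female knockout sham mouse 2 (0.18; adjusted p = 0.0273), female knockout TAC mouse 4 (0.18; adjusted p = 0.034) or male knockout sham mouse 4 (0.19; adjusted p = 0.0153). Psmb6 in sham mice read 4182.8, 5602.0, 5360.6 and 4573.2 in wild-type females, 5124.8, 5067.2, 5674.6 and 5942.2 in wild-type males, 6749.7, 6765.8, 5412.5 and 5828.3 in knockout females and 5762.5, 4956.9, 5981.1 and 7472.0 in knockout males. Psmb6 in TAC mice read 4915.2, 5176.4, 5055.3 and 5137.5 in wild-type females, 6153.2, 4374.8, 4483.2 and 4282.8 in wild-type males, 5777.8, 6598.8, 6450.3 and 5962.0 in knockout females and 6318.8, 6343.7, 5886.0 and 5988.9 in knockout males. Psmb6, the caspase-like subunit, was at -0.02 ± 0.06 (adjusted p = 0.773, limma) and likewise overlapped in all strata. Its sign turned with centring on the array median (0.0036).

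**Figure D4:**
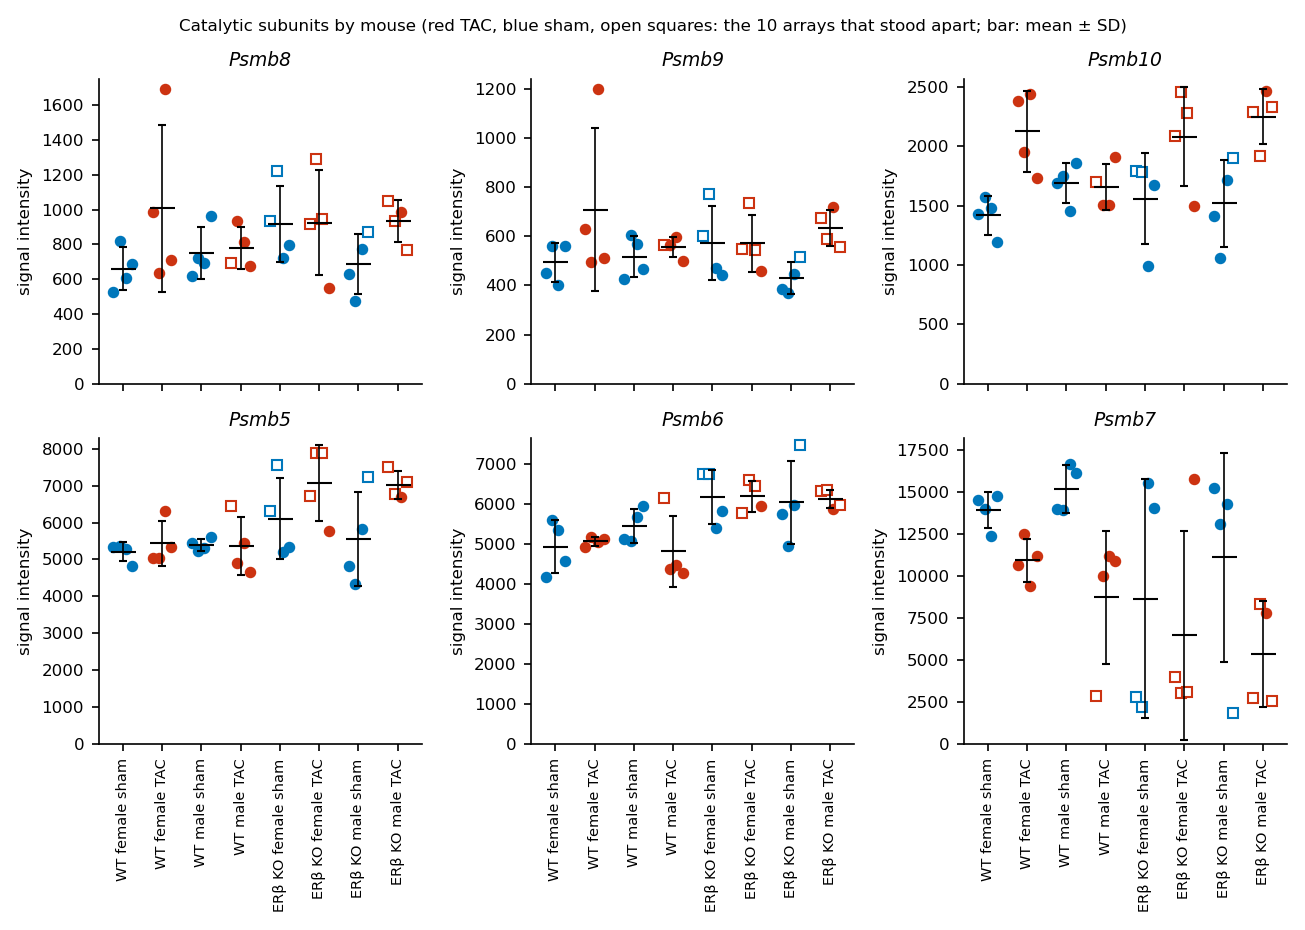
Signal intensity (vertical axis, from 0) of the 3 immunoproteasome genes (top) and their constitutive counterparts Psmb5, Psmb6 and Psmb7 (bottom) in every mouse by group (horizontal axis); red points are TAC and blue points sham mice, open squares the 10 arrays that stood apart, black bars the mean ± SD of 4 mice. Wild-type female TAC mouse 3 tops Psmb8 (1692.2) and Psmb9 (1200.2), and the open squares hold the lowest Psmb7 values.

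Over deviations from the group means in 32 mice, the median correlation of the 3 immunoproteasome pairs was 0.64 (0.46 to 0.84), against 0.09 (-0.85 to 0.92) for the 91 core pairs and 0.10 for the 136 regulatory pairs. The 3 immunoproteasome genes and the core genes gave a median of 0.03 (-0.64 to 0.67), and within it Psmb5 correlated at 0.67 with Psmb10, 0.65 with Psmb8 and 0.60 with Psmb9, within the range of the immunoproteasome pairs. These arrays share their scaling and the split described above, so the values are a description. Among the arrays that did not stand apart, Psmb8 and Psmb9 correlated at r = 0.803 (n = 20, permutation p = 0.00563) and rho = 0.674 (permutation p = 0.00943). Adjusted over 6 pairs, p was 0.0338 for r and 0.0566 for rho. Without the 2 arrays farthest from the median, r was 0.55. The other 5 pairs of Psmb5, Psmb8, Psmb9 and Psmb10 had adjusted p from 0.0566 to 0.434 for r.

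Macrophage markers rose in the same comparison. Of 14 macrophage and monocyte markers tested 12 rose and none fell (85.7% called; median 0.54), where 41.2% of all genes were called (23.5% higher, 17.8% lower), with C1qc at 0.92 ± 0.15 and Cd14 at 0.63 ± 0.11. Their summed signal ran from 16083.6 to 26540.5 over the sham mice and from 21524.0 to 49886.4 over the TAC mice. T and NK lymphocyte markers were near the floor of the array, with 1 of 9 bright enough to test (Cd8a, -0.05 ± 0.12) and a summed signal of 240.8 to 461.7 in sham and 275.5 to 833.9 in TAC mice. Wild-type female TAC mouse 3, which topped Psmb8 and Psmb9, had the highest mean log2 signal of several lists. Among them were the T and NK list (6.75; the other mice 5.71 to 6.26), the B cell list (7.78; 6.55 to 7.60) and the class II list (10.51; 8.94 to 10.15). The erythroid list (8.37; the other mice up to 7.88) and the endothelium list (11.10; up to 11.07) peaked there too. So did the interferon response list (9.95; up to 9.61) and the MHC class I list (11.62; up to 11.33). The macrophage list did not (10.90, against 11.21 in male knockout TAC mouse 3). Dendritic cell and class II markers were tested for 4 of 7 genes, of which only Cd74 rose (0.42 ± 0.15; 25% called, below the 41.2% of all genes). Of the B cell markers, 2 of 5 were tested and did not pass. Among the other lists 4 of 7 fibroblast markers rose (57.1%), and 3 of 6 smooth muscle and pericyte markers rose and 3 fell (100%). The shares were below that of all genes for the endothelium, where 2 of 8 rose and 1 fell (37.5%), the ventricle, where 1 of 9 rose and 2 fell (33.3%), and the atrium, where 1 of 5 rose (20%). The erythroid marker tested did not pass, and no adipocyte marker was bright enough to test. The part of any cell type in the immunoproteasome values was not tested, and in bulk tissue more cells of a type cannot be told apart from more RNA per cell.

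Several genes that carry proteasome products to the cell surface rose. Of 12 MHC class I pathway genes 5 rose and 1 fell (50%, against 41.2% of all genes; median 0.19). The transporter Tap1 rose by 0.50 ± 0.13 and Tap2 by 0.32 ± 0.10, the loading factor Tapbp by 0.20 ± 0.07, and the chaperone Canx fell by 0.63 on the log2 scale (SE 0.15). Of 20 interferon response genes 5 rose and 1 fell (30%, below the 41.2% of all genes, of which 23.5% rose; median 0.14), led by Irf7 (0.74 ± 0.11), Irf8 (0.63 ± 0.10), Bst2 (0.43 ± 0.09) and Oas1a (0.38 ± 0.09). Irf1, a transcription factor of the interferon gamma response that was singled out after its value was seen, was at -0.01 ± 0.07 and did not pass.

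Genes that build, steer and feed the proteasome changed in both directions. Of 17 assembly and regulation genes 2 rose and 4 fell (median -0.04). The ligase Ube3c, which acts on the proteasome, fell by 0.25 on the log2 scale (SE 0.06), the scaffold gene Ecpas by 0.24 (SE 0.07) and Zfand5 by 0.28 (SE 0.10), while the proteasome-bound thioredoxin Txnl1 rose by 0.21 ± 0.05. Of 6 ubiquitin and activation genes Ube2d3 (0.31 ± 0.07) and Ube2l6 (0.31 ± 0.12) rose. Of 9 shuttle and segregase genes 1 rose, the p97 cofactor Nploc4 (0.41 ± 0.08), and the shuttles Ubqln1 (-0.17 ± 0.05) and Ubqln2 (-0.20 ± 0.07) fell. Of 15 cardiac ligases and deubiquitinases 2 rose and 4 fell. The deubiquitinase Uchl1 rose most, by 1.31 ± 0.12, the muscle ring-finger gene Trim54 by 0.42 ± 0.10, and Nedd4 and Cblb fell by 0.20 and 0.28 on the log2 scale (SE 0.05 and 0.10). The shares called in these 4 lists, 33.3% to 40%, were below the 41.2% over all genes.

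Taken stratum by stratum, with 4 TAC against 4 sham mice and separate shams in each, few members passed. In wild-type females 0 of 40 were called (3.28% of all genes: 2.05% higher, 1.23% lower; limma), with 8 at an unadjusted p under 0.05 against 1787 of 11014 genes. The changes there were 0.57 ± 0.18 for Psmb10, 0.50 ± 0.24 for Psmb8, 0.42 ± 0.20 for Psmb9, 0.36 ± 0.14 for Psmd8 and -0.48 ± 0.17 for Psme1. In wild-type males 0 of 40 were called (5.56% of all genes: 3.11% higher, 2.45% lower; limma), with 5 at an unadjusted p under 0.05 against 2162. Psmd8 was at 0.45 ± 0.14 (adjusted p = 0.0502, limma) and the 3 immunoproteasome genes between -0.03 and 0.11. The wild-type female groups held 0 of the 10 arrays that stood apart. Without the 10 their log2 changes were therefore the same, and the spread used by the test was not. Leaving out the 10 arrays gave 5 calls in wild-type females (9.85% of all genes) and 6 in wild-type males (17.2%), where Psme1 was at -0.63 ± 0.11 (adjusted p = 0.000685, limma) and Psmb3 at -0.37 ± 0.08 (adjusted p = 0.00333, limma).

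Among knockout females Psmd8 rose (0.49 ± 0.14; adjusted p = 0.0289, limma) and no other member passed, against 5.58% of all genes (3.75% higher, 1.83% lower). The call was lost without female knockout sham mouse 3 or 4 or TAC mouse 1 or 2, each of which gave 0 members, and without TAC mouse 4 there were 2. Without the 10 arrays the female knockout TAC group held 1 array, Psmd8 was at 0.43 ± 0.18 (adjusted p = 0.401, limma) and no member passed. Knockout males gave 9 calls of 40 (22.5%, against 32.6% of all genes, 19.6% higher and 12.9% lower), 8 higher and 1 lower. The largest was Psmd3 at 1.02 ± 0.24 (2.03-fold; adjusted p = 0.0019, limma), followed by Psmd13 (0.71 ± 0.18), Psmb10 (0.58 ± 0.18), Psmd8 (0.54 ± 0.14), Psmd4 and Psmb9 (both 0.53), Psmd9 (0.46 ± 0.15) and Psmb5 (0.36 ± 0.14). The call that fell was Psma1 (-0.57 ± 0.20; adjusted p = 0.0282, limma). The count moved with single mice: it was 3 without male knockout sham mouse 2, 5 without sham mouse 1 or TAC mouse 1, and 16 without sham mouse 4, the array that stood apart. Without all 10, which left 1 male knockout TAC array, the log2 changes of Psmb7, Psme1 and Psmb9 were -0.86, -0.62 and 0.79. With the 10 as a term the count was 5, and with the Actb covariate 1. Fitted on the male knockout groups alone it was 1. No share of all genes stands beside the counts of these other fits, so they describe the fits and not proteasome genes in particular.

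**Figure D5:**
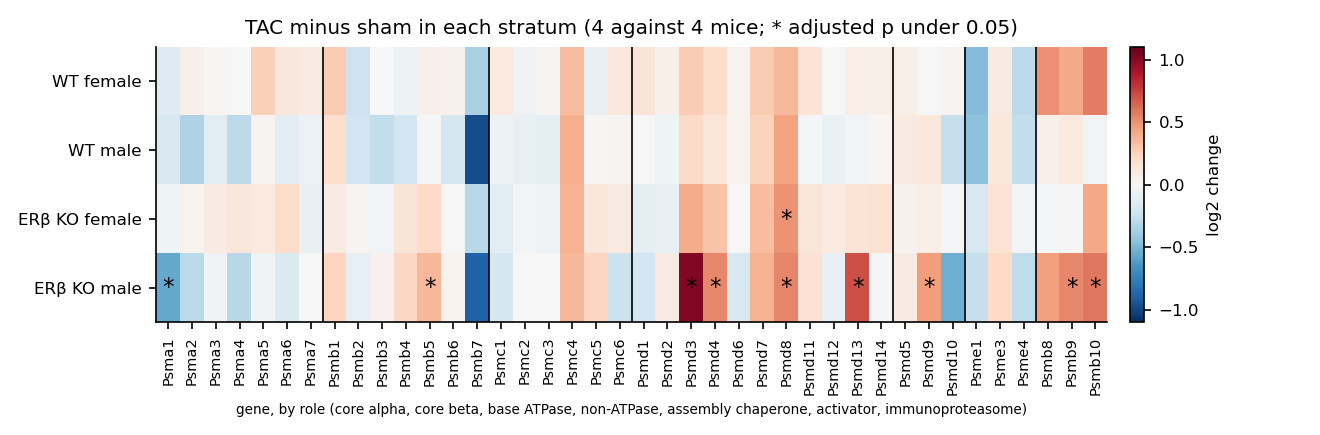
Log2 change (TAC minus sham, colour) of the 40 proteasome genes (horizontal axis, by role) in each combination of sex and genotype (rows; 4 against 4 mice); asterisks mark an adjusted p under 0.05 and vertical lines part the roles. Psmd8 and Psmc4 are higher in all 4 rows, the last row holds 9 of the 10 asterisks, and Psmb8 and Psmb9 are at 0.50 and 0.42 in wild-type females and 0.45 and 0.53 in knockout males against -0.02 to 0.11 in the other rows.

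In sign, 10 of the 40 members were above 0 in all 4 strata and 5 below 0 in all 4, against 27.2% and 23.2% of all genes. The core had 1 of its 14 genes above 0 throughout, Psmb1, and the regulatory particle 5 of 17. Core genes were mostly below 0 in wild-type males (12 of 14; median -0.18), where 51.6% of all genes were above 0. In wild-type females 9 of 14 were above 0 (median 0.04), as were 51.5% of all genes. For the wild-type sex difference 0 of the 14 core genes had an unadjusted p under 0.05 (limma).

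No member's response to TAC was shown to differ between the sexes or the genotypes. In each of the 4 tests of a difference 0 of 40 members and 0% of all genes passed (limma). At an unadjusted p under 0.05 there was 1 member for the sex difference in wild-type mice (198 of all genes), 1 in knockout mice (803), 0 for the genotype difference in females (314) and 3 in males (1523). The wild-type sex difference, female minus male response, was 0.60 ± 0.25 for Psmb10 (unadjusted p = 0.0244, adjusted p = 1, limma), 0.44 ± 0.34 for Psmb8 and 0.31 ± 0.28 for Psmb9. In knockout mice the same differences were -0.16 ± 0.25, -0.47 ± 0.34 and -0.52 ± 0.28. The genotype difference in males, knockout minus wild type, was 0.81 ± 0.33 for Psmd3, 0.74 ± 0.26 for Psmd13 and 0.61 ± 0.25 for Psmb10 (adjusted p = 0.321, 0.282 and 0.321, limma). Without the 10 arrays the female and male knockout TAC groups held 1 array each. There the genotype difference in males was 1.12 for Psmd3, 1.09 for Psmd13 and -0.56 for Psma1. The sex difference in knockout mice was 0.95 for Psmb7, the gene in which the split was noticed. With 1 array in a group these are effect sizes without a test.

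Among sham mice, knockout against wild type over both sexes, Psma7 (0.31 ± 0.08; adjusted p = 0.0442, limma) and Psmc4 (0.42 ± 0.11; adjusted p = 0.0455) were higher, 2 of 40 members against 1.5% of all genes (0.844% higher, 0.654% lower). Psma7 did not overlap between the genotypes in either sex, and Psmc4 did. Of the knockout sham arrays 3 of 8 stood apart and of the wild-type sham arrays 0. With these arrays as a term in the fit, or with the Actb covariate, 0 members passed. With them left out, Psma7 and Psmc4 were not called, and Psma5 (0.35 ± 0.10; adjusted p = 0.0442, limma) and Psmd3 (-0.44 ± 0.13; adjusted p = 0.0418) were. The count of 2 became 0 to 3 when single arrays were left out, and it moved by more than 1.5 times for 19 of the 32. The immunoproteasome genes were at 0.16 ± 0.17 (Psmb8), -0.03 ± 0.14 (Psmb9) and -0.04 ± 0.13 (Psmb10). Between female and male sham mice 0 of 40 members passed, against 0.0726% of all genes (0.0272% higher and 0.0454% lower in females; limma), with Psmb2 (-0.14 ± 0.07) and Psme4 (-0.23 ± 0.10) at an unadjusted p under 0.05 against 642 of all genes. The sham and TAC comparisons share the sham mice, so they are not independent of each other.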

How the data were processed

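Left ventricular RNA of 32 mice was hybridised to 1 array each, in 8 groups of 4. The values are linear signal intensities. The authors used MAS5 5.0 to make these intensities, per the submitters' processing notes, and as deposited the 2% trimmed mean is 500 on each array. Here log2(signal + 32) was taken, the probe set of highest mean stood for a gene, and 11014 of 18193 genes with a mean of at least 7.11 (a signal of 106.1) were tested. Of 45101 probe sets, 34945 name 1 gene, 932 several, 9160 none and 64 are controls. The 8 group means were fitted with limma 3.58.1 in R 4.3.3 (functions lmFit and contrasts.fit, then eBayes with its trend option) for 11 comparisons, and p-values were adjusted by Benjamini-Hochberg over all genes, with a threshold of 0.05. Fold changes on this scale understate those of dim genes. The fit was tested on simulated data. Gene names come from the platform's annotation, and coordinates and promoters from RefSeq (GRCm38.p6). Figures were drawn with matplotlib 3.10.9.

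The members and gene lists were chosen with earlier results of these data known. Every member tested is reported. Mouse by mouse values are given for the catalytic pairs, the activators and the 2 genes of smallest p among the other core, ATPase and non-ATPase genes, and up to 4 genes of smallest p are named from each pathway list. Alternatives were quantile normalization, array-median centring, pseudocounts of 1 and 128, other filters (none, or a mean of at least 8.98), the mean of all probe sets of a gene, a replicate block, no trend, the compared groups alone, the Gapdh 3-prime covariate and each array left out. Leaving out the 10 arrays that stood apart, fitting them as a term, and the Actb 3-prime covariate were added after the data were seen.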

Additional observations from a re-analysis of the deposited data

Results flagged for a closer look

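In 15 genes and 8 groups (120 sets of 4 mice), 9 values lay so far from those of the other mice of the group that Dixon's critical value at the 95% level was passed. Chance marks about 1 in 20 such sets. For Psmb7 the mice so marked were wild-type male TAC mouse 1 (2827.9, the others 10010.9 to 11195.5), male knockout sham mouse 4 (1846.5, the others 13079.8 to 15210.8) and female knockout TAC mouse 4 (15739.4, the others 3040.8 to 3946.1). The first and the second of these are among the 10 arrays that stood apart, and the third is the array of its group that did not. Wild-type male TAC mouse 1, also one of the 10, was high for Psmb6 (6153.2, the others 4282.8 to 4483.2) and Psme1 (7891.1, the others 4600.2 to 5038.3).

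The other marked values lay on arrays that did not stand apart. Psmb10 was low in female knockout sham mouse 3 (993.7, the others 1674.6 to 1788.6). Psmb5 was low in wild-type female sham mouse 4 (4818.9, the others 5281.9 to 5374.6). Psmc5 was low in wild-type female TAC mouse 1 (2527.0, the others 3840.4 to 4086.2), and Psmd8 in wild-type male sham mouse 4 (2722.5, the others 3395.8 to 3468.4).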

How the results depend on the processing

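Psmd8 and Psmc4 kept their direction and call over the mean of the strata in all 14 other settings and without each array, as did Psmb10 and Psme1 except with the Actb covariate. The count of members called there (12) was 5 with the Gapdh 3-prime covariate, 2 with that of Actb and 10 to 18 without each array. The 10 arrays that stood apart moved the other counts, and the share of all genes called moved too where it is given above. The counts that follow therefore describe the fits and not proteasome genes in particular. Leaving the 10 out gave 5 in females and 6 in males of the wild type (0 with all arrays). It left 1 array in each knockout TAC group, so no count is given for comparisons that use those groups. As a term the 10 arrays gave 2 in females and 3 in males of the wild type, 5 in knockout males (9) and 0 for genotype among sham mice (2). Fitting the compared groups alone gave 2 in each wild-type sex, 0 in females and 1 in males with the knockout, and 0 for genotype among sham mice. The Gapdh covariate gave 4 in knockout males. The Actb covariate gave 0 in females and 1 in males with the knockout, and 0 for genotype among sham mice. For wild-type males quantile normalization and the stricter filter gave 1 each. For genotype among sham mice array-median centring, no filter, no trend and the Gapdh covariate gave 0, and the mean of all probe sets gave 1. The wild-type female groups held 0 of the 10 arrays, so leaving the 10 out kept their log2 changes and altered the spread used by the test. The cause of the other shifts was not tested. Without each array the counts were 0 to 1 in each wild-type sex, 0 to 2 in females and 3 to 16 in males with the knockout, 0 to 3 for genotype among sham mice, 0 to 2 for the genotype difference in males (2 without male knockout sham mouse 4) and 0 for the other differences and for sex among sham mice.

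Signs turned for Psmd7, Psmb6 and Psme3. The change of Psmd7 was -0.03 (-0.0291; adjusted p = 0.781, limma) with the mean of its probe sets. That of Psmb6, -0.02, was 0.0036 with array-median centring and -0.0545 to 0.0027 without each array. That of Psme3, 0.15, was -0.11 (-0.1097) with the Actb covariate.

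The replicate numbers do not pair the mice: over 112 pairs with the same number in different groups the mean correlation of deviations was 0.007 (-0.61 to 0.58), and 12 of 32 mice correlated best with their own number. A replicate block gave 11 members over the mean of the strata, 0 in females and 1 in males of the wild type, 1 in females and 8 in males with the knockout, and 1 for genotype among sham mice.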
